A study of Mus musculus with 11 samples.

Results

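The 40 genes described here encode matrix and contractile proteins of mural cells and fibroblasts, and their levels were read in 11 RNA sequencing libraries of cultured adult mouse microglia. They were taken by symbol from a list of collagens, proteoglycans, other matrix proteins, filament proteins and surface markers of those cells, 40 of the 34745 genes in the deposited table. Mural cells are the pericytes and smooth muscle cells that wrap brain vessels. Pericytes lie inside the vascular basement membrane, arterial smooth muscle cells contract through alpha-actin filaments, and fibroblasts of the meninges and large vessels secrete fibrillar collagen and the proteoglycans that bind it. Microglia, the macrophages of the brain, are of another lineage, and activated mural cells and fibroblasts in culture raise actin filaments and collagen together.

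The microglia were taken from C57BL/6 mice (cerebrum, 6 to 8 weeks of age). Culture lasted 10 to 14 days in medium with M-CSF (10 ng/ml) and TGF-beta1 (5 ng/ml), which every group, Control included, had received. Control cells (n = 3) had no further agent. The Pam3CSK4 group (n = 2) received this lipopeptide agonist of Toll-like receptor 2 at 100 ng/ml for 24 h. The IFN-gamma group (n = 3) received interferon-gamma at 20 ng/ml for 24 h, and the combined group (n = 3) received Pam3CSK4 and then IFN-gamma. How microglia were separated from other brain cells, and whether replicates came from separate mice or cultures, is not given in the sources used here, so p-values measure the spread between these samples, which may be technical. Libraries are named by group and replicate number, with Combined for Pam3CSK4 followed by IFN-gamma. In 1 label field the agonist of Combined 2 and Combined 3 has another last digit, and both were taken as Pam3CSK4.

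Library totals were 15033702 to 20321017 counts. Of 18 microglial markers, 17 or 18 reached 1 FPKM (fragments per kilobase, scaled to the library total) in every library, and their summed level was 10342 to 20103 FPKM. Control 3 held 12171 FPKM of these markers against 17167 and 17754 in the other Control libraries. IFN-gamma 1 and Combined 3 lay at 18422 and 10436 FPKM, beside 18557 and 20103 in the other IFN-gamma libraries and 10984 and 10598 in the other combined libraries. Earlier results of these data had singled out Control 3, IFN-gamma 1 and Combined 3 by their matrix transcripts, so these 3 libraries are described one by one and no test sets them against the rest.

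Collagen and smooth muscle transcripts were plentiful in Control 3, fewer in IFN-gamma 1 and fewer again in Combined 3, and close to 0 in nearly all other libraries. The 40 genes held 2.57% of all counts in Control 3 (exact binomial 95% interval 2.56 to 2.58), 0.292% in IFN-gamma 1 (0.290 to 0.295) and 0.123% in Combined 3 (0.121 to 0.124). The share was 0.0436% and 0.0541% in Control 1 and 2, 0.0899% and 0.0840% in Pam3CSK4 1 and 2, 0.0644% and 0.0704% in IFN-gamma 2 and 3, and 0.0637% and 0.0587% in Combined 1 and 2. In those 8 libraries most of these counts came from Vim, Cspg4, Igfbp7 and Postn. Without these 4 genes the other 36 held 432408 counts in Control 3, 34376 in IFN-gamma 1 and 13406 in Combined 3, and between 351 and 1738 in each of the other 8. Fewer cells of a type and less RNA per cell cannot be told apart in such bulk samples, and intervals cover counting error only.

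**Figure D1:**
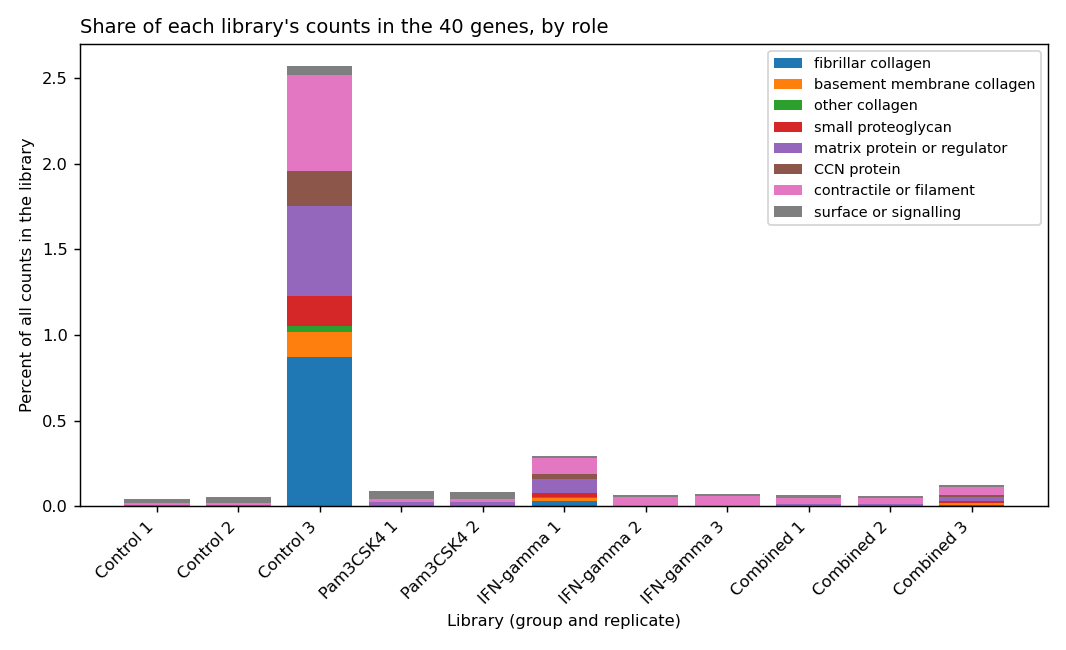
Share of each library's counts held by the 40 genes (percent, bars from 0, stacked by role; 1 bar per library, 11 libraries, number = replicate). Control 3 reaches 2.57%, IFN-gamma 1 0.292% and Combined 3 0.123%, while the other 8 bars end below 0.123%.

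The order Control 3, IFN-gamma 1, Combined 3 from high to low was kept by 32 of the 40 genes and broken by 8. In 31 of the 32 both steps were larger than counting error, the exception being Des. Among the 31 genes that reached 1 FPKM in at least 2 libraries and so were tested, 27 kept the order, against 29.0% of all 10938 tested genes. The 3 libraries were also the 3 highest for 29 of the 40 genes and for 26 of the 31 tested ones, against 2.13% of all tested genes. The list was drawn up with these libraries' levels known, so both shares describe the data and are no independent evidence. Collagens, proteoglycans, the other matrix proteins, CCN proteins and contractile genes all contributed, whereas 7 genes (Rgs5, Des, Pdgfra, Notch3, Sparcl1, Lum and Col6a3) stayed under 1 FPKM in every library. The order was broken in 3 ways. Col6a3 and Cspg4 were lowest of the 3 libraries in IFN-gamma 1, Col8a1, Lum, Rgs5, Sparcl1 and Vim were highest in IFN-gamma 1, and Dcn alone was highest in Combined 3.

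**Figure D2:**
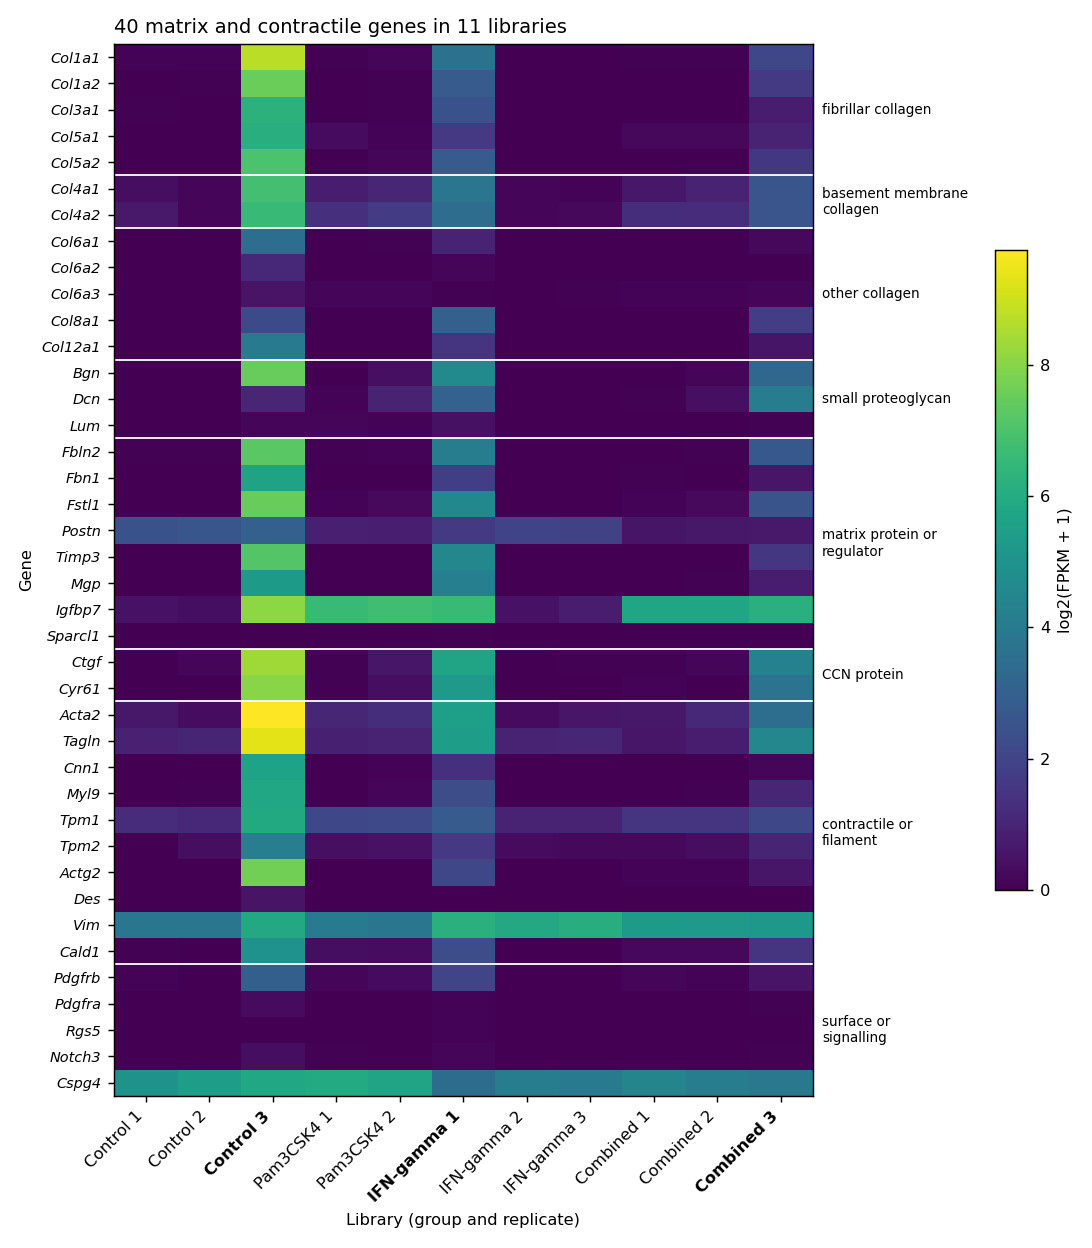
Level of each of the 40 genes (vertical axis, grouped by role) in each of the 11 libraries (horizontal axis), as log2(FPKM + 1) from dark (0) to yellow. Of the 3 columns named in bold, Control 3 is the brightest for most genes, from 865 FPKM of Acta2 downward. IFN-gamma 1 is dimmer and Combined 3 is dark for many genes, as for Col1a1 at 430, 11.4 and 3.26 FPKM in Control 3, IFN-gamma 1 and Combined 3. Igfbp7, Postn, Vim and Cspg4 also show in some or all of the other columns.

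Fibrillar collagens form the tensile fibres of connective tissue, and type I collagen is a trimer of Col1a1 and Col1a2 chains. Col1a1 (chr11:94936224-94953042, mm10) read 0.0576, 0.0547 and 430.4 FPKM in Control 1, 2 and 3 and 0.0315 and 0.139 in Pam3CSK4 1 and 2. The IFN-gamma libraries read 11.4, 0.00772 and 0.00955 FPKM in replicates 1, 2 and 3, and the combined libraries 0.0286, 0.0355 and 3.26. Control 3 thus stood 37.7 times (95% counting interval 35.7 to 39.8) above IFN-gamma 1, which stood 3.50 times (95% counting interval 3.14 to 3.91) above Combined 3, and the other 8 libraries held 1 to 15 counts each. Its partner chain Col1a2 followed at 187 FPKM in Control 3, 6.05 in IFN-gamma 1 and 2.12 in Combined 3. Elsewhere its counts were 2 and 7 in Control 1 and 2, 7 and 10 with Pam3CSK4, 2 and 1 in IFN-gamma 2 and 3 and 3 and 6 in Combined 1 and 2. Both chains of the trimer were therefore present in the 3 libraries and nearly absent elsewhere, with a Control 3 to Combined 3 ratio of 132 for Col1a1 and 87.9 for Col1a2.

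Col3a1, the chain of type III collagen found in distensible tissue, read 75.3 FPKM in Control 3, 4.57 in IFN-gamma 1 and 0.663 in Combined 3. The other 8 libraries gave counts of 7 and 3 in Control 1 and 2, 1 and 7 with Pam3CSK4, 1 and 0 in IFN-gamma 2 and 3 and 2 and 2 in Combined 1 and 2. Col5a1 and Col5a2 encode type V collagen, which nucleates type I fibrils. Col5a1 read 70.7 FPKM in Control 3, 2.09 in IFN-gamma 1 and 0.921 in Combined 3. Outside the 3 libraries it had counts of 1 and 2 in Control 1 and 2, 33 and 10 with Pam3CSK4, 1 and 1 in IFN-gamma 2 and 3 and 26 and 28 in Combined 1 and 2, mostly in libraries given Pam3CSK4. Col5a2 lies beside Col3a1 on chromosome 1 (chr1:45311538-45349706 and chr1:45374321-45503282) and read 127 FPKM in Control 3, 5.90 in IFN-gamma 1 and 1.97 in Combined 3. Its counts in the remaining libraries were 4 and 1 in Control 1 and 2, 2 and 22 with Pam3CSK4, 1 and 1 in IFN-gamma 2 and 3 and 3 and 4 in Combined 1 and 2. Over the 5 fibrillar collagens the ratio of Control 3 to IFN-gamma 1 had a median of 30.8 (range 16.5 to 37.7), beside a median of 8.47 over the 31 genes with at least 10 counts in each of the 3 libraries. Fibrillar collagens took 34.0% of the 40 genes' counts in Control 3, 10.4% in IFN-gamma 1 and 7.51% in Combined 3.

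Type IV collagen is the network collagen of basement membranes, and its Col4a1 and Col4a2 chains lie head to head on chromosome 8 (chr8:11198423-11312826 and chr8:11312805-11449287). The 2 gene spans overlap at their starts, and the strand setting of the counting is not given in the sources used here, so reads there may be shared. Col4a1 read 0.292, 0.0986 and 113 FPKM in Control 1, 2 and 3 and 0.698 and 1.10 in Pam3CSK4 1 and 2. With IFN-gamma it read 13.3, 0.137 and 0.0751 FPKM in replicates 1, 2 and 3, and the combined libraries 0.527, 0.900 and 5.03. Col4a2 read 0.571, 0.129 and 93.6 FPKM in Control 1, 2 and 3 and 1.53 and 2.24 in Pam3CSK4 1 and 2. Its levels after IFN-gamma were 10.4, 0.125 and 0.164 FPKM in replicates 1, 2 and 3, and the combined libraries 1.41, 1.35 and 5.00. Each chain was highest in the 3 libraries in the same order, and the Control 3 to IFN-gamma 1 ratio was 8.47 for Col4a1 and 9.03 for Col4a2. In the other 8 libraries, where Col1a1 had 1 to 15 counts, both chains had more reads, with more in the 4 given Pam3CSK4 (75 to 239 counts) than in Control 1 and 2 and IFN-gamma 2 and 3 (8 to 59 counts).

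The other collagens were lower and less alike. Col12a1, a collagen that coats fibrils, read 15.8 FPKM in Control 3, 1.74 in IFN-gamma 1 and 0.449 in Combined 3. Col12a1 counts in the others were 0 and 1 in Control 1 and 2, 2 and 5 with Pam3CSK4, 0 and 4 in IFN-gamma 2 and 3 and 0 and 3 in Combined 1 and 2. Col6a1, a chain of the beaded-filament collagen VI, read 10.4 FPKM in Control 3, 0.904 in IFN-gamma 1 and 0.170 in Combined 3. Elsewhere its counts were 0 and 0 in Control 1 and 2, 0 and 2 with Pam3CSK4, 1 and 0 in IFN-gamma 2 and 3 and 0 and 1 in Combined 1 and 2. Its neighbour on chromosome 10, Col6a2, reached 1.16 FPKM in Control 3 and 0.107 in IFN-gamma 1 (176 and 15 counts) and had no count in any other library, which allows up to 3 counts in each. The remaining collagen VI chain, Col6a3, did not follow them, with 102 counts in Control 3 but 37 in Combined 3 and 8 in IFN-gamma 1. The other 8 libraries gave counts of 0 and 0 in Control 1 and 2, 28 and 29 with Pam3CSK4, 6 and 10 in IFN-gamma 2 and 3 and 15 and 22 in Combined 1 and 2. Its highest level was 0.417 FPKM. Col8a1, a short-chain collagen of vessel walls and Descemet's membrane, was highest in IFN-gamma 1 at 6.93 FPKM, 1.98 times (95% counting interval 1.72 to 2.27) its level in Control 3 (3.51), and Combined 3 held 2.39. Outside these 3 libraries Col8a1 had 1 count in all, in Combined 2.

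Small leucine-rich proteoglycans bind collagen fibrils and set their spacing. Biglycan (Bgn) read 178 FPKM in Control 3, 24.3 in IFN-gamma 1 and 8.50 in Combined 3. Outside the 3 libraries it had counts of 3 and 3 in Control 1 and 2, 3 and 48 with Pam3CSK4, 3 and 0 in IFN-gamma 2 and 3 and 2 and 18 in Combined 1 and 2. Decorin (Dcn, chr10:97479500-97518162), a marker of fibroblasts, read 0, 0 and 1.05 FPKM in Control 1, 2 and 3 and 0.0787 and 0.927 in Pam3CSK4 1 and 2. The IFN-gamma libraries read 7.43, 0 and 0 FPKM in replicates 1, 2 and 3, and the combined libraries 0.0476, 0.307 and 16.4. The 3 libraries stood in the reverse order for Dcn: Combined 3 was 2.21 times (95% counting interval 1.91 to 2.57) IFN-gamma 1, and IFN-gamma 1 was 7.11 times (95% counting interval 5.06 to 10.2) Control 3. The level in Pam3CSK4 2 (0.927 FPKM, 30 counts) was close to that in Control 3 (39 counts), and Pam3CSK4 1 had 3 counts. Control 3 thus held 178 FPKM of Bgn and 1.05 of Dcn, and Combined 3 8.50 and 16.4. Lumican (Lum), the gene next to Dcn (chr10:97565501-97572703), had 12 counts in IFN-gamma 1, 4 in Control 3 and 2 in Combined 3 and never exceeded 0.348 FPKM.

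The glycoproteins and matrix regulators largely kept the order. Fibulin-2 (Fbln2), which links elastic fibres to basement membranes, read 153 FPKM in Control 3, 16.5 in IFN-gamma 1 and 5.48 in Combined 3. Its counts in the remaining libraries were 4 and 6 in Control 1 and 2, 8 and 10 with Pam3CSK4, 1 and 1 in IFN-gamma 2 and 3 and 4 and 9 in Combined 1 and 2. Fibrillin-1 (Fbn1), the backbone of microfibrils, read 48.4 FPKM in Control 3, 2.55 in IFN-gamma 1 and 0.512 in Combined 3. Fbn1 counts in the others were 0 and 0 in Control 1 and 2, 5 and 2 with Pam3CSK4, 3 and 3 in IFN-gamma 2 and 3 and 8 and 5 in Combined 1 and 2. The secreted glycoprotein Fstl1 read 177 FPKM in Control 3, 22.4 in IFN-gamma 1 and 4.86 in Combined 3. Elsewhere its counts were 1 and 0 in Control 1 and 2, 9 and 17 with Pam3CSK4, 1 and 1 in IFN-gamma 2 and 3 and 9 and 23 in Combined 1 and 2. All 3 kept the common order, but the step from Control 3 to IFN-gamma 1 was 19.0 times for Fbn1 against 9.28 for Fbln2 and 7.89 for Fstl1. Timp3, a matrix-bound metalloproteinase inhibitor, read 142 FPKM in Control 3, 22.1 in IFN-gamma 1 and 1.90 in Combined 3. The other 8 libraries gave counts of 0 and 1 in Control 1 and 2, 1 and 3 with Pam3CSK4, 1 and 0 in IFN-gamma 2 and 3 and 2 and 1 in Combined 1 and 2. Its larger step was the one from IFN-gamma 1 to Combined 3, 11.6 times (95% counting interval 10.4 to 13.1). Matrix Gla protein (Mgp), which keeps vessel walls from calcifying, read 39.1 FPKM in Control 3, 17.8 in IFN-gamma 1 and 0.654 in Combined 3. Outside the 3 libraries it had counts of 0 and 0 in Control 1 and 2, 0 and 0 with Pam3CSK4, 0 and 0 in IFN-gamma 2 and 3 and 0 and 1 in Combined 1 and 2. Mgp thus had the smallest Control 3 to IFN-gamma 1 step of the 7 genes of this role with a ratio, 2.20 times (95% counting interval 1.95 to 2.48), and the largest IFN-gamma 1 to Combined 3 step, 27.2 times (95% counting interval 16.8 to 47.2). Sparcl1, a secreted protein of vessels and astrocytes, had 4 counts over all 11 libraries.

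Igfbp7 and Postn were among 5 genes that kept the order of the 3 libraries without these being the 3 highest. Igfbp7 (chr5:77349240-77408041), a secreted IGF-binding protein of vessel walls, read 0.407, 0.290 and 276 FPKM in Control 1, 2 and 3 and 97.1 and 107 in Pam3CSK4 1 and 2. With IFN-gamma it read 93.2, 0.382 and 0.709 FPKM in replicates 1, 2 and 3, and the combined libraries 52.3, 53.4 and 71.7. Its 2 Pam3CSK4 libraries stood above IFN-gamma 1 and Combined 3, and Combined 1 and 2 stood more than 50 FPKM above the 4 untreated or IFN-gamma libraries outside the 3. Periostin (Postn), a matricellular protein of fibroblasts, read 4.52, 5.18 and 6.94 FPKM in Control 1, 2 and 3 and 0.832 and 0.761 in Pam3CSK4 1 and 2. Its levels after IFN-gamma were 2.12, 2.90 and 2.70 FPKM in replicates 1, 2 and 3, and the combined libraries 0.463, 0.533 and 0.589. Here the groups separated by treatment: the 3 Control libraries were highest, the 3 IFN-gamma libraries next, and the Pam3CSK4 and combined libraries were all under 1 FPKM.

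The CCN proteins Ctgf and Cyr61 are matrix-bound signals whose genes respond to serum response factor and to the YAP coactivator with TEAD factors. Ctgf read 325 FPKM in Control 3, 51.4 in IFN-gamma 1 and 18.3 in Combined 3. Its counts in the remaining libraries were 1 and 7 in Control 1 and 2, 4 and 38 with Pam3CSK4, 0 and 2 in IFN-gamma 2 and 3 and 3 and 10 in Combined 1 and 2. Cyr61 read 259.9 FPKM in Control 3, 37.5 in IFN-gamma 1 and 12.2 in Combined 3. Cyr61 counts in the others were 0 and 0 in Control 1 and 2, 2 and 9 with Pam3CSK4, 0 and 0 in IFN-gamma 2 and 3 and 3 and 1 in Combined 1 and 2. Their ratios were alike, 6.32 and 6.93 from Control 3 to IFN-gamma 1 and 2.80 and 3.06 from IFN-gamma 1 to Combined 3. Among other genes commonly used as targets of those factors, Thbs1 read 841 FPKM in Control 3, 102 in IFN-gamma 1 and 66.9 in Combined 3 and 1.43 to 19.6 elsewhere, and 5 of the 14 on that list had the 3 libraries as their 3 highest.

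Because Ctgf, Cyr61 and the smooth muscle genes were high in the same libraries, the 250 bases upstream of RefSeq transcript starts (GRCm38.p6) were searched on both strands for 3 motifs. These were the TEAD motif GGAATG, the TATA motif TATAAA and the CArG box, the site of serum response factor. The CArG box was searched in its strict form only, CC, then 6 bases of A or T, then GG. Windows were found for 29 of the 40 genes. None was found for Ctgf, Tagln, Actg2, Col1a1, Col5a2, Col12a1, Dcn, Lum, Pdgfrb, Mgp and Sparcl1, so these genes were not searched. The 29 genes had 32 windows, and no gene held the same motif in more than 1 of its windows. The shares of all promoters are likewise counted per window. The TEAD motif stood in the windows of 6 genes (Col3a1, Col6a2, Cyr61, Acta2, Tpm1 and Cald1), so in 6 of the 32, and in 12.6% of all 32851 promoters. The TATA motif stood in 5 (Col3a1, Postn, Cyr61, Vim and Cald1) and in 12.4% of all. The strict CArG box stood in Myl9 alone of the 29 genes searched and in 1.47% of all. Stretches 1 base away from the strict form were not counted. The Acta2 window printed below holds such stretches, ccctatatgg and ccttgtttgg, so it is not shown to lack sites of serum response factor. The windows of Cyr61 (chr3:145649986-145650235, minus strand), Acta2 (chr19:34255374-34255623, minus strand) and Myl9 (chr2:156775214-156775463, plus strand) show 1 example of each kind of match, and that of Igfbp7 (chr5:77408046-77408295, minus strand), the gene with the largest Pam3CSK4 difference among the 8 other libraries, holds none of the 3 motifs. Each is printed 5′ to 3′ along the gene and ends at the base before the transcript start, with matches in capitals.
Cyr61: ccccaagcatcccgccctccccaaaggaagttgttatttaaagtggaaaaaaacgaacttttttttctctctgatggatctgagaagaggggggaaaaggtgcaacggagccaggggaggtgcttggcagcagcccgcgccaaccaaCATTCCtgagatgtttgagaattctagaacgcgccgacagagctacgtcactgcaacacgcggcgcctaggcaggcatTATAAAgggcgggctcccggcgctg
Acta2: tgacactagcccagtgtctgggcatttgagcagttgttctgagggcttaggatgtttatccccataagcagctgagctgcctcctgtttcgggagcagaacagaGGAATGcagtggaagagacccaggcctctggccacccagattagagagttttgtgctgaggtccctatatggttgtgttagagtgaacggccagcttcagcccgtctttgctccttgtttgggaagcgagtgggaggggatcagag
Myl9: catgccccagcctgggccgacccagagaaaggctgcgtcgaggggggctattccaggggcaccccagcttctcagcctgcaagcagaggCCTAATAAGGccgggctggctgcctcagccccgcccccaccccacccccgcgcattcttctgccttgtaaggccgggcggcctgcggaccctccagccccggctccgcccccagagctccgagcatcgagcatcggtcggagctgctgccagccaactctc
Igfbp7: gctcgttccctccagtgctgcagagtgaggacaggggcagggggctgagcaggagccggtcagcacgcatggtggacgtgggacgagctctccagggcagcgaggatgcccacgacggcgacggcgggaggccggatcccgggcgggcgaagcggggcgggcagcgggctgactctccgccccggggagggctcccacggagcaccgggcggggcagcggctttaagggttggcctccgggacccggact
In Cyr61 the capitals are the TEAD motif read on the other strand, 103 to 98 bases upstream, and the TATA motif, 25 to 20 bases upstream. In Acta2 they are the TEAD motif 146 to 141 bases upstream, and in Myl9 the CArG box 161 to 152 bases upstream. A match is a description of the letters only.

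Contractile and filament genes included the most abundant of the 40. Acta2 (chr19:34241090-34255336), smooth muscle alpha-actin, read 0.560, 0.248 and 865 FPKM in Control 1, 2 and 3 and 1.04 and 1.41 in Pam3CSK4 1 and 2. The IFN-gamma libraries read 44.1, 0.210 and 0.521 FPKM in replicates 1, 2 and 3, and the combined libraries 0.529, 1.13 and 10.5. Control 3 stood 19.6 times (95% counting interval 18.6 to 20.7) above IFN-gamma 1, which stood 4.20 times (95% counting interval 3.74 to 4.73) above Combined 3, and the remaining 8 libraries did not exceed 1.41 FPKM. Tagln, the actin-binding protein SM22, read 647 FPKM in Control 3, 43.5 in IFN-gamma 1 and 22.1 in Combined 3. Elsewhere its counts were 21 and 25 in Control 1 and 2, 24 and 24 with Pam3CSK4, 27 and 26 in IFN-gamma 2 and 3 and 16 and 23 in Combined 1 and 2. Actg2, the smooth muscle gamma-actin of gut and vessels, read 203 FPKM in Control 3, 3.25 in IFN-gamma 1 and 0.505 in Combined 3. The other 8 libraries gave counts of 0 and 1 in Control 1 and 2, 1 and 0 with Pam3CSK4, 0 and 0 in IFN-gamma 2 and 3 and 3 and 4 in Combined 1 and 2. Actg2 had the widest range of the genes with a ratio, Control 3 being 402 times (95% counting interval 274 to 616) Combined 3. Actin genes are nearly identical in coding sequence, and how shared reads were counted is not given in the sources used here, so the split between Acta2 and Actg2 is uncertain, as is that between Tpm1 and Tpm2.

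Calponin (Cnn1), a late smooth muscle marker, read 49.2 FPKM in Control 3, 1.53 in IFN-gamma 1 and 0.130 in Combined 3. Outside the 3 libraries it had counts of 0 and 0 in Control 1 and 2, 1 and 2 with Pam3CSK4, 0 and 0 in IFN-gamma 2 and 3 and 0 and 0 in Combined 1 and 2. Myl9, the regulatory light chain of smooth muscle myosin, read 56.0 FPKM in Control 3, 3.92 in IFN-gamma 1 and 1.07 in Combined 3. Its counts in the remaining libraries were 0 and 1 in Control 1 and 2, 0 and 4 with Pam3CSK4, 0 and 0 in IFN-gamma 2 and 3 and 0 and 2 in Combined 1 and 2. Both followed Acta2 in order, the Control 3 to IFN-gamma 1 ratio being 32.2 for Cnn1 and 14.3 for Myl9. Caldesmon (Cald1), which restrains actomyosin, read 0.0280, 0.00266 and 30.8 FPKM in Control 1, 2 and 3 and 0.278 and 0.244 in Pam3CSK4 1 and 2. With IFN-gamma it read 3.98, 0.00225 and 0.0139 FPKM in replicates 1, 2 and 3, and the combined libraries 0.146, 0.157 and 1.75. The tropomyosin gene Tpm1 read 1.36, 1.20 and 59.5 FPKM in Control 1, 2 and 3 and 3.37 and 3.48 in Pam3CSK4 1 and 2. Its levels after IFN-gamma were 5.89, 0.903 and 0.969 FPKM in replicates 1, 2 and 3, and the combined libraries 1.74, 1.87 and 3.34. Cald1 and Tpm1 were detected outside the 3 libraries too, and for each the 2 Pam3CSK4 libraries were the highest of the other 8. For Tpm1 both Pam3CSK4 libraries also stood just above Combined 3. Tpm2 read 17.0 FPKM in Control 3, 2.11 in IFN-gamma 1 and 1.04 in Combined 3. Tpm2 counts in the others were 2 and 26 in Control 1 and 2, 34 and 35 with Pam3CSK4, 24 and 14 in IFN-gamma 2 and 3 and 18 and 31 in Combined 1 and 2. Desmin (Des), the muscle intermediate filament, had 32 counts in Control 3, 1 in IFN-gamma 1 and 1 in Pam3CSK4 1 and no other count. Vimentin (Vim), the intermediate filament of mesenchymal cells and of macrophages, read 13.3, 13.2 and 58.1 FPKM in Control 1, 2 and 3 and 14.7 and 13.4 in Pam3CSK4 1 and 2. The IFN-gamma libraries read 72.2, 58.2 and 66.5 FPKM in replicates 1, 2 and 3, and the combined libraries 39.2, 36.4 and 35.8. Vim was higher in Control 3 than in the other 2 Control libraries, but the 3 IFN-gamma replicates lay close together and Combined 3 was the lowest of its group.

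Surface and signalling markers were few. Pdgfrb, the receptor through which PDGF-BB recruits pericytes, read 6.79 FPKM in Control 3, 3.12 in IFN-gamma 1 and 0.440 in Combined 3. Elsewhere its counts were 8 and 3 in Control 1 and 2, 19 and 26 with Pam3CSK4, 1 and 0 in IFN-gamma 2 and 3 and 18 and 12 in Combined 1 and 2. Its Control 3 to IFN-gamma 1 ratio was small at 2.18 times (95% counting interval 1.93 to 2.45). Pdgfra, a marker of fibroblasts and oligodendrocyte precursors, had 63, 19 and 8 counts in Control 3, IFN-gamma 1 and Combined 3 and 2 counts elsewhere. Notch3, a mural receptor, had 40, 16 and 6 counts in those libraries and 0 to 4 in each other one. Rgs5, one of the most used pericyte markers, had 1 count in Control 3, 6 in IFN-gamma 1 and 0 in each of the other 9, which allows up to 3 counts in each. Cspg4 (NG2), a proteoglycan of pericytes and oligodendrocyte precursors, behaved otherwise and read 30.1, 43.1 and 57.5 FPKM in Control 1, 2 and 3 and 61.2 and 50.3 in Pam3CSK4 1 and 2. With IFN-gamma it read 9.83, 16.5 and 15.8 FPKM in replicates 1, 2 and 3, and the combined libraries 21.0, 15.9 and 14.0. It was present in all libraries, was highest in Pam3CSK4 1 rather than in Control 3 and was lowest in IFN-gamma 1. Which cells its reads came from was not tested.

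Across the 31 genes with at least 10 counts in each of the 3 libraries, the 3 libraries did not differ by 1 common factor. The Control 3 to IFN-gamma 1 ratio ran from 0.141 for Dcn to 62.6 for Actg2 with a median of 8.47. IFN-gamma 1 to Combined 3 ran from 0.452 for Dcn to 27.2 for Mgp with a median of 2.99. Contractile and filament genes had a median Control 3 to IFN-gamma 1 ratio of 12.2 (n = 8) and the matrix proteins and regulators one of 6.42 (n = 7). In the next step the same roles had medians of 2.15 and 4.62. The 5 fibrillar collagens and Actg2 lay above the median in the first ratio, and Mgp, Timp3 and Pdgfrb lay below it there and above the median in the second. These ratios compare single libraries, each of another treatment, and treatment, culture and cell content cannot be told apart in them.

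**Figure D3:**
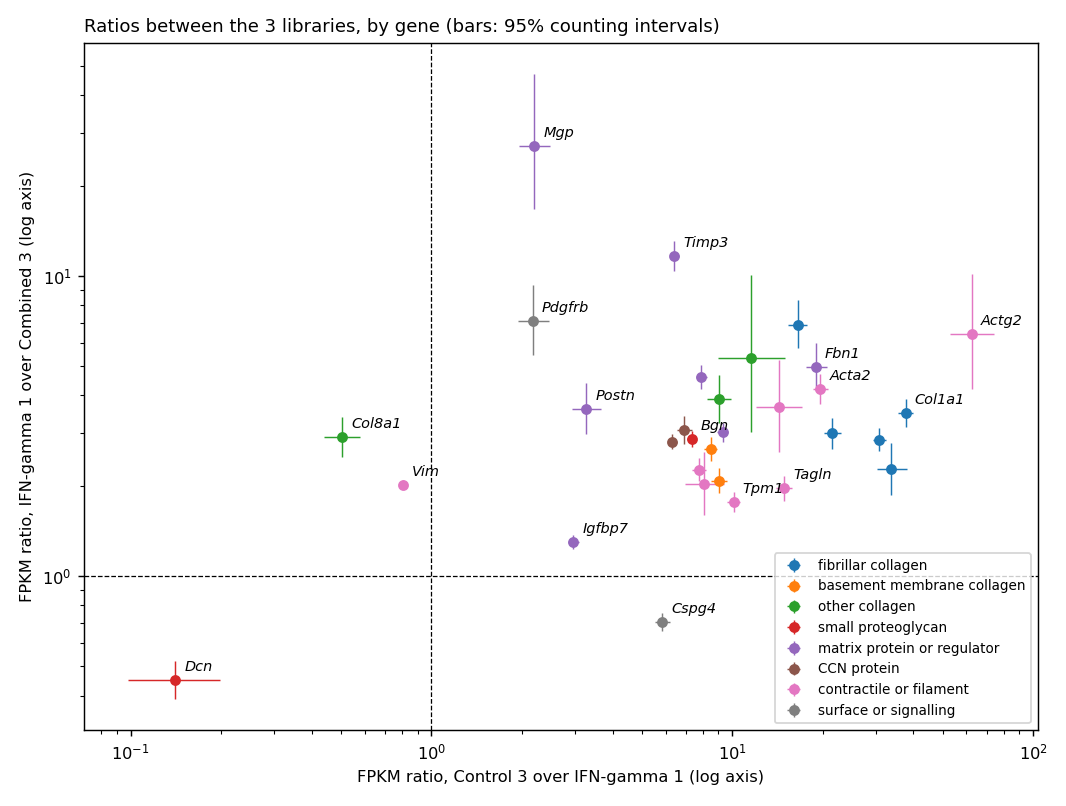
Ratio of FPKM in Control 3 to IFN-gamma 1 (horizontal, log axis) against IFN-gamma 1 to Combined 3 (vertical, log axis) for the 31 genes with at least 10 counts in each library, coloured by role, with 95% counting intervals; dashed lines mark a ratio of 1. Most genes lie in the upper right, Dcn lies in the lower left (0.141 and 0.452), Vim and Col8a1 left of the vertical line, and Cspg4 below the horizontal one.

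Genes of the same tissues outside the 40 followed in part, as given by lists drawn up with earlier results known. Of 30 other fibroblast and meningeal markers, 13 reached 1 FPKM in Control 3, 13 in IFN-gamma 1, 3 in Combined 3 and 1 to 2 in each other library. The meningeal retinoic acid enzyme Aldh1a2 read 4.27, 8.27 and 0.950 FPKM in the 3 libraries and the transcription factor Foxc1 10.0, 1.19 and 0.130. Dpt had no count, and Col13a1, Pcolce2, Omd, Lama1, Fap, Clec3b, Mfap4, Aspn and Tcf21 never exceeded 0.197 FPKM. Slc6a13 read 0 in Control 3 and IFN-gamma 1 and was highest in Pam3CSK4 2 at 0.886 FPKM. The fibroblast and meningeal list was thus divided. The 30 markers summed to 246, 87.9 and 32.5 FPKM in the 3 and to 2.83 to 105 in the others. Igfbp4 led the sum in Control 3 (132 FPKM) and in both Pam3CSK4 libraries (104 and 103), and Col15a1 led it in IFN-gamma 2 and 3. Of 12 other pericyte markers, 5 reached 1 FPKM in Control 3, 2 in IFN-gamma 1 and 1 in Combined 3, against 0 to 1 elsewhere. Anpep was among them in each of the 3 libraries (1.04, 23.0 and 4.44 FPKM) and was the only marker past 1 FPKM in Combined 3. It was as high in the other libraries of those treatments, with 28.0 and 25.3 FPKM in IFN-gamma 2 and 3 and 4.02 and 4.14 in Combined 1 and 2. Cd248 read 49.3, Ndufa4l2 29.7 and Foxs1 2.43 FPKM in Control 3, whereas the pericyte markers Kcnj8 and Higd1b never exceeded 0.0117 and 0.0618 FPKM and Vtn had no count. Of 16 smooth muscle markers, 8 reached 1 FPKM in Control 3, 5 in IFN-gamma 1, 4 in Combined 3 and 3 to 4 in the 8 libraries. Actn1, Flna and Filip1l did so in every library. Smtn did so in IFN-gamma 1 and Combined 3 (2.33 and 1.52 FPKM) but also in IFN-gamma 2 and 3 (1.78 and 1.80) and Combined 1 (1.41). Lmod1, Smtn and Tinagl1 read 7.20, 8.21 and 9.93 FPKM in Control 3, whereas Myh11, the smooth muscle myosin heavy chain, never exceeded 0.0926 FPKM. Mylk, Synpo2 and Myocd never exceeded 0.114, 0.0591 and 0.0182 FPKM, and Ppp1r14a had no count. The markers behind a label of mural cells were thus divided. Many contractile genes, Cd248 and Pdgfrb were present in Control 3. Rgs5, Kcnj8, Higd1b, Vtn, Myh11, Mylk, Synpo2, Myocd and Ppp1r14a were at or near 0 in every library.

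Collagen assembly genes divided. Serpinh1, the collagen chaperone, read 311 FPKM in Control 3, 14.3 in IFN-gamma 1 and 6.27 in Combined 3 and at most 0.222 elsewhere, and 11 of 25 genes on the collagen processing list had the 3 libraries as their 3 highest. Basement membrane genes did so in 7 of 12, led by Nid1 at 49.0 FPKM in Control 3, 19.8 in IFN-gamma 1 and 9.81 in Combined 3. Endothelial markers summed to 40.4, 27.3 and 6.13 FPKM in the 3 and to 3.51 to 30.4 elsewhere. Flt1 gave 11.0, 20.9 and 1.20 FPKM of these sums in the 3, but read 15.7 and 16.4 in Control 1 and 2 and 28.3 and 22.3 in IFN-gamma 2 and 3. Only 1 of the 12 endothelial markers, Cdh5, had the 3 libraries as its 3 highest. Cdh5, the cadherin of endothelial junctions, read 13.7, 1.96 and 1.63 FPKM in the 3 and at most 0.250 elsewhere, and Cldn5, their claudin, was at 0 in all libraries. Astrocyte markers summed to 34.2, 5.35 and 5.11 against 1.74 to 4.46, of which Gja1, a gap junction gene, gave 30.8 in Control 3. Neuronal markers summed to 7.05, 10.8 and 3.75 against 0.137 to 0.562, nearly all of it Tubb3. Their part in the levels of the 40 genes was not tested.

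The genes whose profile over the 11 libraries was nearest to Acta2 were sought among 4634 genes reaching 10 FPKM, by 50% of the summed absolute difference of profiles scaled to a sum of 1 (0 is identical, 1 is disjoint). Within the 40 they were Fbn1 (0.00567), Col5a2 (0.00842) and Col3a1 (0.00895), and outside them Prss23 (0.00810), Ccdc80 (0.00917), Serpinh1 (0.00942), Col11a1 (0.0116) and Inhbb (0.0149). For Dcn the nearest outside was Serpinb2 (0.208), read at 8.99 FPKM in Control 3, 4.41 in IFN-gamma 1 and 30.3 in Combined 3 and 1.07 in Pam3CSK4 2, followed by Tnc (0.421), Arg1 (0.455), Ccl7 (0.456) and Ptx3 (0.462). Within the 40 the nearest to Dcn was Vim (0.655), so its profile stood apart from theirs.

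Treatment effects on the 40 genes were tested across groups with edgeR's quasi-likelihood test over all 11 libraries, Benjamini-Hochberg adjusted over all 10938 tested genes, and again without the 3 libraries. They had been singled out by their level of these genes, so the spread among the remaining 8 was fixed in part by that choice, and calls made there are given as a second reading of these libraries. With all libraries, Pam3CSK4 against Control called 1 of the 31 tested genes, a fall of Postn, while 41.4% of all tested genes were called. The 9 genes under the limit were Col6a1, Col6a2, Col6a3, Lum, Des, Pdgfra, Rgs5, Notch3 and Sparcl1. Postn was 5.55 ± 1.26 FPKM (SD, n = 3) in Control and 0.797 ± 0.0499 FPKM (SD, n = 2) with Pam3CSK4, without overlap, and its log2 change was -2.80 ± 0.20 (SE, adjusted p = 8.41e-06) by edgeR. Of Acta2 the log2 difference was -7.77 ± 3.86 (SE, adjusted p = 0.135), with 1 Control library far above both Pam3CSK4 libraries and the other 2 below them.

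Without the 3 libraries, 11 of the 31 genes were called between Pam3CSK4 and Control, 10 higher and 1 lower, beside 53.8% of all tested genes. Higher were Igfbp7, Cald1, Col4a1, Col4a2, Col5a1, Fbn1, Fstl1, Tpm1, Pdgfrb and Cspg4, and Postn was lower. The filter of 1 FPKM in at least 2 libraries had been applied over all 11. Cald1, Col5a1, Fbn1, Fstl1 and Pdgfrb stayed under 1 FPKM in each of the 8, and Col4a1 passed it in Pam3CSK4 2 alone. These genes were thus tested only through the libraries left out. Their calls in the 8, here and in the comparisons below, are no independent evidence. Igfbp7 held 12 and 9 counts in Control 1 and 2 against 3485 and 3257 with Pam3CSK4, a log2 change of 8.12 ± 0.22 (SE, adjusted p = 2.00e-07) by edgeR. With all 11 libraries the same change was 0.25 ± 2.36 (SE, adjusted p = 0.941), with Control 3 at 276 FPKM. Cald1 changed by 4.02 ± 0.59 (SE, adjusted p = 6.59e-04), Col4a2 by 2.37 ± 0.49 (SE, adjusted p = 0.00408), Col4a1 by 2.13 ± 0.50 (SE, adjusted p = 0.00797) and Tpm1 by 1.35 ± 0.10 (SE, adjusted p = 2.02e-05) on the log2 scale in the 8 libraries. In the fit of all 11 these 4 genes had log2 differences of -5.19, -3.95, -5.29 and -2.49, none past the threshold, so Control 3 sets their direction. Levels were low for others called, given here as counts over 2 libraries each and ratios scaled to the library totals. Fstl1 had 26 against 1 counts, a ratio of 23.7 (95% counting interval 3.90 to 972). Col5a1 had 43 against 3 counts, a ratio of 13.1 (95% counting interval 4.18 to 65.9). Pdgfrb had 45 against 11 counts, a ratio of 3.73 (95% counting interval 1.90 to 8.00). Fbn1 had 7 counts against 0, at least 2.13-fold higher against a floor of 3 counts over both Control libraries, although the counting interval of the 7 against 0 reached down to 1.31.

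IFN-gamma against Control, with all libraries, called 3 of the 31 genes (41.6% of all tested genes): Vim was higher, and Postn and Cspg4 were lower. Vim was 28.2 ± 25.9 FPKM (SD, n = 3) in Control and 65.6 ± 7.04 FPKM (SD, n = 3) with IFN-gamma, a log2 change of 1.38 ± 0.46 (SE, adjusted p = 0.0362) by edgeR. This call was lost when any 1 library other than Control 3 was left out (adjusted p up to 0.0934), and Control 3 reached 58.1 FPKM, just under IFN-gamma 2. Cspg4 was 43.6 ± 13.7 FPKM and 14.0 ± 3.66 FPKM in the same groups, without overlap, and changed by -1.51 ± 0.26 (SE, adjusted p = 0.00158). Postn changed by -0.99 ± 0.16 (SE, adjusted p = 9.13e-04), from 4.52 to 6.94 FPKM in Control to 2.12 to 2.90 with IFN-gamma. In the 8 libraries 4 were called, Vim higher and Postn, Cspg4 and Tpm1 lower (47.3% of all tested genes). The collagens and Acta2 were not called in either fit, with 0 to 18 counts in IFN-gamma 2 and 3.

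Adding Pam3CSK4 before IFN-gamma, the combined group against IFN-gamma alone, called 1 gene with all libraries, Postn, lower (34.2% of all tested genes), by -2.29 ± 0.16 (SE, adjusted p = 9.83e-06) on the log2 scale in edgeR. In the 8 libraries 8 were called higher and 2 lower (40.1% of all tested genes). Higher were Igfbp7, Cald1, Col4a1, Col4a2, Col5a1, Fstl1, Tpm1 and Pdgfrb, and Postn and Vim were lower. Igfbp7 changed by 6.61 ± 0.21 (SE, adjusted p = 3.35e-07) and Cald1 by 4.26 ± 0.67 (SE, adjusted p = 0.00152) there, against 0.94 and -0.94 with IFN-gamma 1 and the other 2 libraries included. Fewer than 4 counts stood behind the IFN-gamma side of Col5a1, Fstl1 and Pdgfrb, given as counts over 2 libraries each and ratios scaled to the library totals. Col5a1 had 54 against 2 counts, a ratio of 22.5 (95% counting interval 5.94 to 191). Fstl1 had 32 against 2 counts, a ratio of 13.3 (95% counting interval 3.41 to 115). Pdgfrb had 30 against 1 counts, a ratio of 25.0 (95% counting interval 4.16 to 1021). This comparison and that of Pam3CSK4 with Control have no library in common. Both came from the same fit with a shared estimate of the spread, after libraries were left out for their level of these genes. Calls found in both are therefore not independent.

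IFN-gamma added after Pam3CSK4, the combined group against Pam3CSK4, called Cspg4 alone with all libraries (9.10% of all tested genes). Cspg4 was 55.8 ± 7.74 FPKM (SD, n = 2) with Pam3CSK4 and 17.0 ± 3.60 FPKM (SD, n = 3) in the combined group, without overlap, and its log2 change was -1.61 ± 0.28 (SE, adjusted p = 0.00696) by edgeR. Without Pam3CSK4 1 the adjusted p of Cspg4 was 0.0659. In the 8 libraries Vim was higher and Postn, Tpm1, Cspg4 and Igfbp7 were lower, 5 genes in all (19.4% of all tested genes). Igfbp7 read 97.1 and 107 FPKM with Pam3CSK4 and 52.3 and 53.4 in Combined 1 and 2.

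Both treatments against Control, which shares its Control libraries with the single treatments, called 3 genes lower with all libraries (47.6% of all tested genes). They were Postn (-3.29 ± 0.17 (SE, adjusted p = 7.03e-07) on the log2 scale), Cspg4 (-1.25 ± 0.26 (SE, adjusted p = 0.00327)) and Actg2 (-8.10 ± 2.99 (SE, adjusted p = 0.0491)) by edgeR. The Actg2 call rested on Control 3, with 203 FPKM against 0 and 0.0240 in Control 1 and 2 and 0.0564, 0.0747 and 0.505 in the combined group, and without Control 3 its sign turned (log2 3.87). In the 8 libraries 9 were higher (Col4a1, Col4a2, Col5a1, Fbn1, Fstl1, Tpm1, Igfbp7, Vim and Cald1) and Postn and Cspg4 were lower (53.4% of all tested genes). Fbn1 had 13 counts in Combined 1 and 2 against 0 in Control 1 and 2, at least 3.30-fold higher against the same floor, with a counting interval that reached down to 2.32.

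The interaction subtracts the Pam3CSK4 effect in cells without IFN-gamma from that in cells with it. It called 0 of the 31 genes in edgeR with all libraries, with 0 at an unadjusted p under 0.05 and 0 by DESeq2, while 16.0% of all tested genes were called. In the 8 libraries 2 were called, Igfbp7 and Vim (28.3% of all tested genes). Of the 40 genes, Postn and Cspg4, and Vim less firmly, were called between treatments in the fit of all 11 libraries without Control 3 setting the direction. Igfbp7, Cald1, Tpm1 and the type IV collagen chains were called once the 3 libraries were left out. Of these, Cald1 and Col4a1 had passed the level filter only through those 3 libraries.

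**Figure D4:**
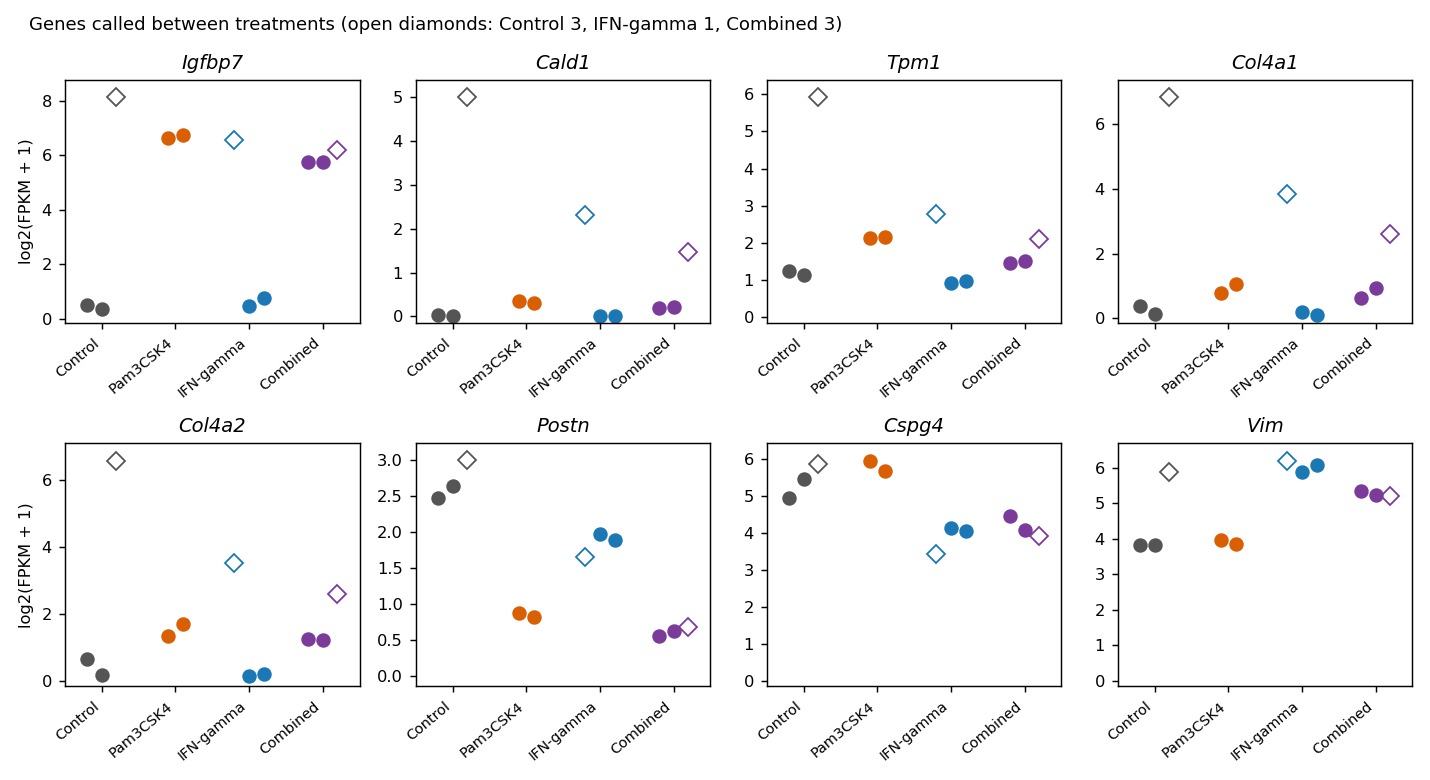
Level of 8 genes called between treatments (vertical axis, log2(FPKM + 1)) by group (horizontal axis); each point is 1 library, and open diamonds are Control 3, IFN-gamma 1 and Combined 3. Filled Igfbp7, Cald1, Tpm1, Col4a1 and Col4a2 points are higher with Pam3CSK4 and in the combined group than in Control or with IFN-gamma, Postn is lowest in the 5 libraries given Pam3CSK4, and Vim is higher with IFN-gamma.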

How the data were processed

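RNA from 11 libraries in 4 groups was sequenced. The deposited table held whole-number read counts per gene, and the FPKM values deposited beside them equalled count over library total and 1 constant per gene, per the file headers and values. TopHat2 2.1.0, Cufflinks 2.1.1, Cuffdiff and mm10 are named in the submitters' processing notes, with no role given. Which tool counted reads, on which annotation and strand and with what rule for shared reads is not given in the sources used here. Columns were matched to samples by the number in each sample's description. Tests used edgeR 4.0.16 in R 4.3.3, quasi-likelihood, on the counts (TMM scaling, 4 group means, no replicate block, two-sided, Benjamini-Hochberg threshold 0.05). They covered genes reaching 1 FPKM in 2 or more of the 11 libraries, and this set was kept when libraries were left out. The procedure was tested on simulated data. Standard errors are the absolute log2 change over the square root of F. Alternatives were DESeq2 1.42.0, its size factors, other filters, a replicate block, each library left out and, added with results known, the 3 libraries left out. Ratios carry exact binomial 95% intervals of counts. Folds were planned for at most 4 called genes per comparison, and others were added after their values were seen. Levels are given in full for genes reaching 10 FPKM, and neighbours in profile for Acta2 and Dcn. The 40 genes and all lists were chosen with earlier results of these data known. Promoters are RefSeq GRCm38.p6, the assembly of mm10.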

Additional observations from a re-analysis of the deposited data

Results flagged for a closer look

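For 2 of the 40 genes the interaction of Pam3CSK4 and IFN-gamma was called by edgeR over the 8 libraries that exclude Control 3, IFN-gamma 1 and Combined 3. Those libraries were left out for their level of these genes, so the spread among the 8, 2 per group, was fixed in part by that choice. These p-values are therefore a second reading and no independent evidence. The Igfbp7 call also rests on low starting levels, 21 counts over Control 1 and 2 and 35 over IFN-gamma 2 and 3. Igfbp7 had an interaction of -1.50 ± 0.38 (SE, adjusted p = 0.0209) on the log2 scale, its rise being 8.12 without IFN-gamma and 6.61 with it. Vim had an interaction of -0.76 ± 0.14 (SE, adjusted p = 0.00571), reading 13.3 and 13.2 FPKM in Control 1 and 2, 14.7 and 13.4 with Pam3CSK4, 58.2 and 66.5 with IFN-gamma and 39.2 and 36.4 with both. Neither was called in the interaction over all 11 libraries (adjusted p = 0.904 and 0.919).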

How the results depend on the processing

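The counts of genes in the order (27 to 32) and with the 3 libraries highest (26 to 30) varied with scaling and filter by less than 1.5 times. Without the 3 libraries the genes called became 11 in Pam3CSK4 against Control, 10 in the combined group against IFN-gamma, 5 against Pam3CSK4, 11 against Control and 2 in the interaction. Leaving out 1 library in turn gave 1 to 2, 1 to 2, 0 to 2, 2 to 4 and 0 to 1 in these comparisons. The upper value came without Control 3 in each of the first 3 and the interaction, and in Pam3CSK4 against Control also without Control 1 or 2. The 0 came without Pam3CSK4 1. With the replicate block, the combined group against Pam3CSK4 called 2 genes in place of 1. Same-numbered libraries varied together in some groups only (correlations of deviations for numbers 1, 2 and 3: Control with IFN-gamma -0.719, 0.667 and -0.688, Control with the combined group 0.468, 0.440 and 0.715, IFN-gamma with the combined group -0.643, 0.485 and -0.625). Some pairs of unlike number reached similar or higher values. These were 0.810 for Control 3 with IFN-gamma 1, 0.779 for IFN-gamma 1 with Combined 3 and 0.561 for Control 1 with Combined 2. The numbers were not taken to pair the samples. Of the log2 changes given for single genes, those that turned sign were those against Control for Actg2 in the combined group (8 libraries 2.23; 1 library left out -9.74 to 3.87) and, for Pam3CSK4, Igfbp7 (-0.33 to 8.12), Cald1 (4.02; -5.77 to 4.02), Col4a2 (2.37; -4.53 to 2.37), Col4a1 (2.13; -5.87 to 2.13), Tpm1 (1.35; -3.04 to 1.35) and Acta2 (1.53; -8.35 to 1.53). Cald1 did so in the combined group against IFN-gamma (4.26; -3.09 to 6.41). The median over the 31 tested members turned sign in all 6 comparisons. For Pam3CSK4 against Control it went from -8.38 to 1.61 in the 8 libraries and 1.65 without Control 3. For the combined group against IFN-gamma it went from -1.54 to 2.18 in the 8 and 6.03 without IFN-gamma 1. Without Control 3 it went from -2.81 to 6.45 for IFN-gamma against Control (-0.597 in the 8). It also went from -4.59 to 5.14 for the combined group against Control and from 6.50 to -3.44 for the interaction. Without Combined 3 it went from 3.28 to -0.667 for the combined group against Pam3CSK4. Each positive extreme for a gene came without Control 3, or without IFN-gamma 1 for Cald1 in the combined group against IFN-gamma. Igfbp7 was the exception, where the negative one came without Control 1 or 2. The call of Actg2 was lost under 12 of 17 alternatives besides 2 that turned its sign. Without Vim the genes held 0.0332, 0.0438 and 2.52% of counts in Control 1, 2 and 3, 0.0784 and 0.0736% in Pam3CSK4 1 and 2, 0.236, 0.0190 and 0.0184% in IFN-gamma 1, 2 and 3 and 0.0331, 0.0303 and 0.0947% in Combined 1, 2 and 3.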

Other observations

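Lox, the enzyme that cross-links collagen and elastin, is not among the 40 genes but was read like Igfbp7: 1.07, 1.50 and 274 FPKM in Control 1, 2 and 3, 176 and 180.0 in Pam3CSK4 1 and 2, 27.0, 0.380 and 0.418 in IFN-gamma 1, 2 and 3 and 85.6, 77.6 and 90.7 in Combined 1, 2 and 3. Its level with Pam3CSK4 was thus closer to that of Control 3 than to those of Control 1 and 2. Bmp1, the procollagen C-proteinase, reached 133 and 141 FPKM with Pam3CSK4 and 42.6 in Control 3, against 5.52 and 5.55 in Control 1 and 2. Prelp, a proteoglycan related to Dcn and Lum, read 6.04 FPKM in IFN-gamma 1 but 0.126 in Control 3 and 0.0461 in Combined 3. The skeletal actin gene Acta1 read 24.5 FPKM in Control 3, 0.465 in Combined 3 and 0 in IFN-gamma 1, where Acta2 read 44.1. How reads shared between actin genes were counted is not given, so the split between Acta1 and Acta2 is uncertain too.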
